A study of Homo sapiens with 8 samples.

Results

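DND-41 and MOLT-4 are human cell lines grown from T-cell acute lymphoblastic leukaemia (T-ALL), a cancer of immature T cells. Here the untreated lines are compared across all genes, using the DMSO libraries alone, which are 4 of the 8 libraries of the series. Each line had 2 such libraries, made from cells kept for 8 h in DMSO, the solvent control, in RPMI-1640 medium with serum and antibiotics. The other 4 libraries came from the same lines after 8 h with 100 nM ACBI-1, a degrader of the BAF chromatin remodelling ATPases, and serve only as a separate set in which the same line difference can be read. All genes of the count tables entered, and 14868 of 63677 gene identifiers passed the filter on low counts. Each group is a single cell line, so a difference between them is a difference between these lines and not between T-ALL subtypes. Whether the 2 libraries of a line came from separate cultures is not stated, so the p-values reflect the variation among these libraries alone, and that variation may be technical.

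T-ALL is commonly divided by the transcription factor that the leukaemia turns on out of place, such as TLX1, TLX3, TAL1, the LMO factors or genes of the HOXA cluster, and by the stage of thymocyte development that the cells resemble. Thymocytes start as progenitors that express CD34, commit to the T lineage under NOTCH1 signalling, rearrange their T-cell receptor genes with the RAG recombinase, pass through a cortical stage with CD1 molecules and both coreceptors CD4 and CD8, and leave as cells with 1 coreceptor. T cells carry either an alpha-beta or a gamma-delta receptor. In TLX-driven leukaemias an arrest around the cortical stage is commonly described, and TAL1-driven leukaemias are often described as later.

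The 4 libraries held from 19980929 to 20185684 counts, so that 3 counts equalled 0.144 to 0.159 CPM (counts scaled by effective library size). Pearson's r of log2(CPM + 1) across genes was 0.999 between the DND-41 libraries, 0.998 between the MOLT-4 libraries and about 0.962 between the lines. The genes that define T cells were present in both lines: of 12 T-cell and T-ALL markers, 11 were tested, and CD3E, a chain of the receptor complex, stood at 1359 and 1425 CPM in DND-41 and 1418 and 1252 in MOLT-4. Markers of myeloid cells summed to under 1 CPM in each library. Of 10 erythroid and megakaryocyte markers, 8 were at 0 in all 4 libraries, the haemoglobin and platelet genes among them. That list still summed to 10.91 and 11.75 CPM in DND-41 and 11.37 and 11.02 in MOLT-4, and its 1 tested member was not called. PECAM1, an endothelial marker, was at 0 in all 4. B-cell markers summed to 1602 and 1618 CPM in DND-41 and 8.72 and 8.32 in MOLT-4, almost all of it CD79A, while PAX5, MS4A1 and CD22 were at 0 in all 4 libraries.

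The second MOLT-4 library stood apart from the first. It held 25 genes at 2 CPM or more that were at least 8-fold above the first library, after an offset of 0.2 CPM, and none went the other way. In DND-41 there was no such gene in either direction. They included genes of extracellular matrix and mesenchymal cells, which were named after their values were seen. FN1, which encodes fibronectin, stood at 3.17 and 153 CPM in the MOLT-4 libraries and at 10.6 and 10.2 in DND-41. COL1A1, a type I collagen chain, stood at 2.22 and 55.9 CPM in MOLT-4 and at 0 and 0.0975 in DND-41. The 25 genes summed to 8.46 and 323 CPM in the 2 MOLT-4 libraries, and to 1.88 and 64.9 in the 2 MOLT-4 libraries with ACBI-1. Of the 11 stromal, epithelial and endothelial markers, 2 were tested, and the list summed to 4.12 and 75.1 CPM in MOLT-4 and 0.19 and 0.15 in DND-41. Only 4 of the 25 genes passed the filter, and 0 of the 25 belong to the gene lists described below other than marker lists. Without this library the counts of genes differing at 2-fold or more were 1995 and 1863 in place of 2028 and 1814, and FN1 went from a log2 difference of 2.91 (higher in MOLT-4) to −1.71.

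The 2 lines differed in most of the genes tested. By edgeR's quasi-likelihood test with Benjamini-Hochberg adjustment, 10017 of 14868 genes (67.4%) had an adjusted p under 0.05, and are said here to be called. Of these, 5157 were higher in MOLT-4 and 4860 higher in DND-41. A difference of 2-fold or more was also asked for, because so many small differences passed. It left 3842 genes (25.8%), of which 2028 (13.6%) were higher in MOLT-4 and 1814 (12.2%) higher in DND-41. By the fitted difference, 822 and 417 were at 16-fold or more. These include genes without a count in 1 line, where the fitted size is not a measured ratio. Of all tested genes, 379 had no count in DND-41 and 120 had none in MOLT-4. The median log2 difference over all tested genes was 0.01, where a positive value means higher in MOLT-4, and the median size without sign was 0.44. Every log2 difference below is MOLT-4 over DND-41, given with its standard error from 2 libraries against 2, and levels are the CPM of library 1 and library 2 in that order. In bulk RNA, fewer cells expressing a gene and less of its RNA per cell cannot be told apart.

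**Figure D1:**
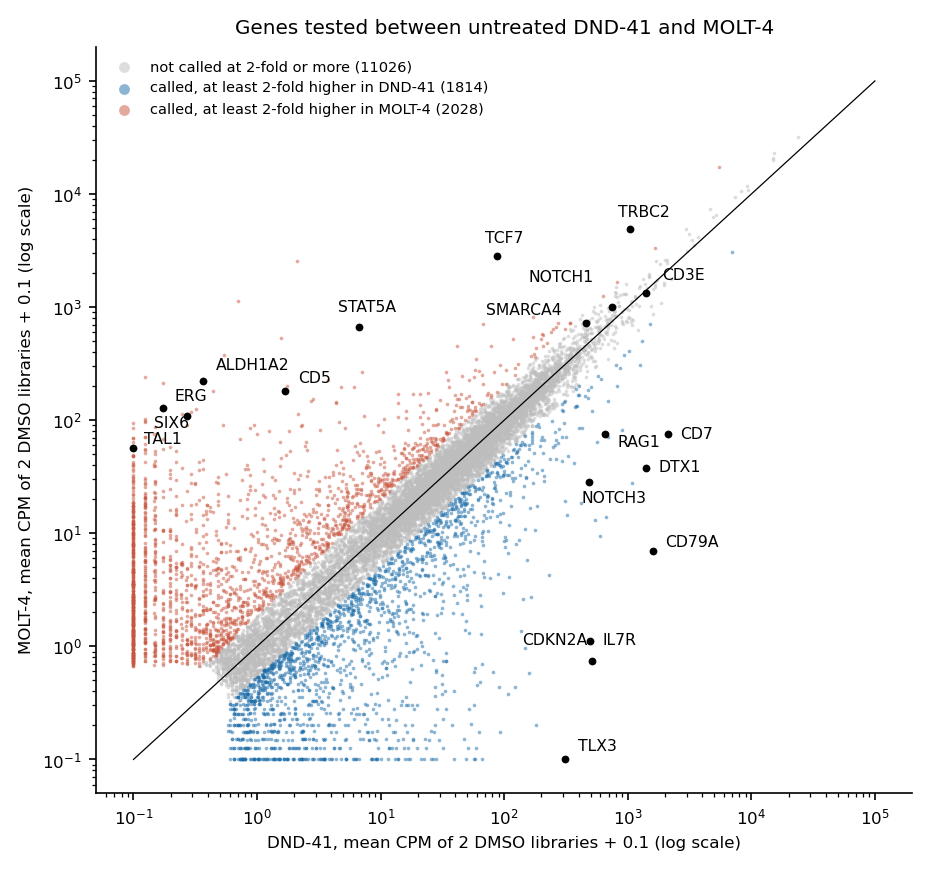
Mean CPM plus 0.1 of each tested gene in the 2 untreated DND-41 libraries (x axis, log scale) and in the 2 untreated MOLT-4 libraries (y axis, log scale), with the diagonal of equal levels. The 2028 genes called at 2-fold or more in MOLT-4 lie above it in red and the 1814 of DND-41 below it in blue, and the labelled genes are described in the text.

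The same line difference was read in the 4 ACBI-1 libraries, which share no library with the DMSO comparison. There 14644 genes were tested and 9522 (65%) were called. Of the 3842 genes that differed by 2-fold or more with DMSO, 3429 were tested in the ACBI-1 libraries, and 3193 of these (93.1%) were called in the same direction, and 2911 (84.9% of those tested) at 2-fold or more. Another 9 were called in the opposite direction. The baseline differences were thus largely present in another pair of libraries per line, although these cells had also received a drug. Whether the ACBI-1 and DMSO libraries of a line came from the same cultures is not stated, so the 2 sets may not be independent.

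The lines differed first in the transcription factor that was on. TLX3, the homeobox factor of the TLX3 subtype, stood at 321 and 303 CPM in DND-41 and had no count in either MOLT-4 library, so that it was at least 2021-fold higher in DND-41 (adjusted p = 7.41e-21). TAL1, the helix-loop-helix factor of the TAL/LMO subtype, showed the reverse, with no count in DND-41 and 56.5 and 56 CPM in MOLT-4 (at least 388-fold higher, adjusted p = 3.95e-18). The libraries of the lines did not overlap for either gene. Per kilobase of gene length, TLX3 in DND-41 reached 209 RPKM and TAL1 in MOLT-4 reached 9.87. TLX1, the close relative of TLX3, had at most 0.0501 CPM in any library, and NKX2-1 and NKX2-5, homeobox drivers of another subtype, had no count in any.

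Of the 22 ectopic homeobox genes listed, 9 were tested and all 9 were called at 2-fold or more, 5 higher in MOLT-4 and 4 in DND-41 (100%, against 25.8% over all genes). A gene that is on in only 1 line passes the filter through that line, so in lists of mostly silent genes the tested members tend to be those that differ. The shares of the TAL, HOXA, immature-cell, B-lineage, growth factor receptor and cytotoxic lists below carry the same limit. All lists were also chosen with earlier results of these data known. The median log2 difference of the 9 was 4.25, or 3.09 with genes at 0 in a line set to the bound that 3 counts allow. Homeobox genes higher in MOLT-4 included MSX1, a factor of craniofacial development (11 and 10.7 CPM against 0.0479 and 0.0487), its relative MSX2 (1.06 and 1.4 against 0 and 0) and TLX2 (8.35 and 7.51 against 0.431 and 0.39). In DND-41 they were, beside TLX3, DLX1 (17 and 17.1 CPM against 0.423 and 0.351, log2 difference −5.45 ± 0.20), PITX1, a factor of hindlimb development (47.7 and 44.1 against 3.65 and 2.86, −3.82 ± 0.11), and DLX2 at a low level. The DLX2 call (adjusted p = 0.0131) did not meet a threshold of 0.01, and it ended without DND-41 library 1 and without MOLT-4 library 2. The number of homeobox genes 2-fold higher in DND-41 was 3 in place of 4 under these settings. It was also 3 with DESeq2 and in the test against a 2-fold difference. The lines thus held different members of this family.

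**Figure D2:**
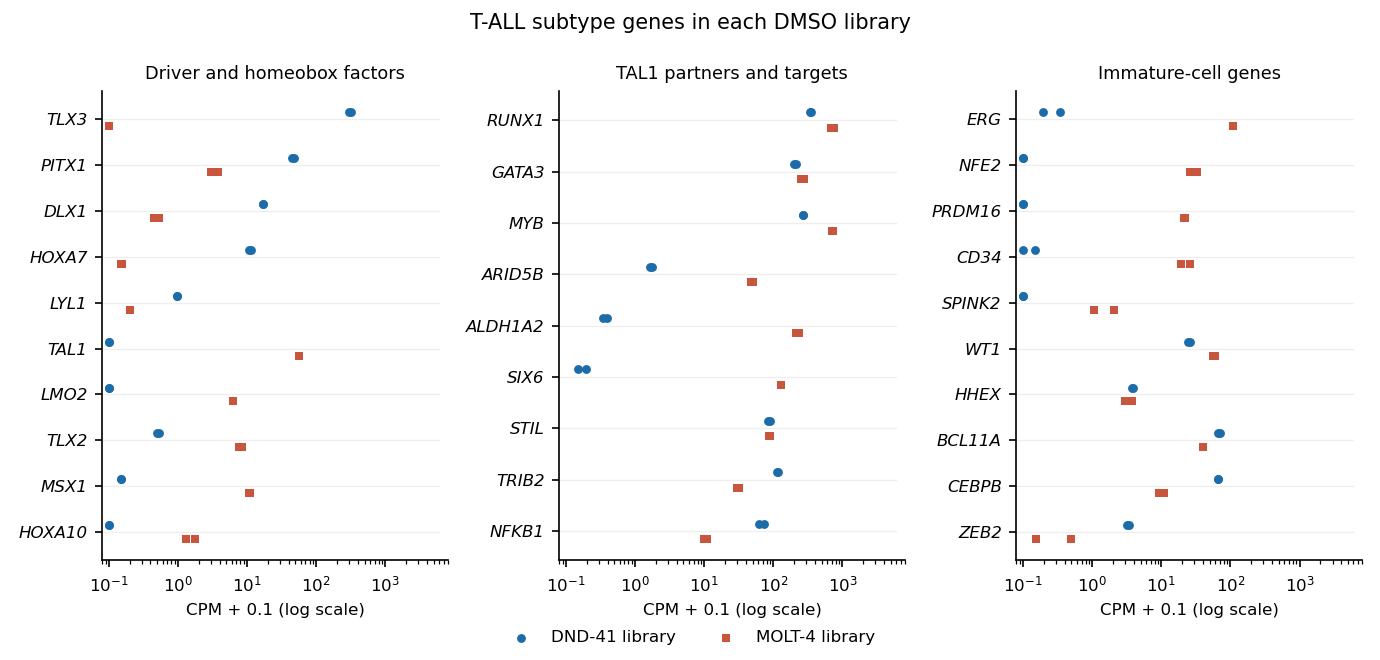
CPM plus 0.1 (x axis, log scale) of T-ALL driver genes and genes of immature cells (rows) in each untreated library, with DND-41 libraries as circles and MOLT-4 libraries as squares. TLX3 sits above 300 CPM in both DND-41 libraries and at the left edge in MOLT-4, and TAL1, NFE2 and PRDM16 show the opposite placement.

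Around TAL1 stand the factors with which it binds DNA and the genes it is known to switch on. Its partner LMO2, a bridging LIM protein, was 6.13 and 6.06 CPM in MOLT-4 and without a count in DND-41 (at least 42.1-fold, adjusted p = 2.55e-11). LMO1 had at most 0.251 CPM and TAL2 at most 0.106 in any library. LYL1, a close relative of TAL1, was low in both, with 0.861 and 0.877 CPM in DND-41 and 0.106 and 0.10 in MOLT-4 (−3.00 ± 0.54). LDB1, which assembles the complex, was at 197 and 200.1 and 214 and 212 CPM and was not called (log2 difference 0.10 ± 0.05, adjusted p = 0.0695). Of the 5 tested TAL, LYL and LMO genes, 2 were higher in MOLT-4 at 2-fold and 1 in DND-41, 60% against 25.8% over all genes.

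The other members of the TAL1 circuit, its partners and targets known from earlier studies, gave 18 tested genes. Of these, 5 were at least 2-fold higher in MOLT-4 and 2 in DND-41, 38.9% against 25.8% over all genes, with a median log2 difference of 0.29. ALDH1A2, which makes retinoic acid, stood at 0.239 and 0.292 CPM in DND-41 and 233 and 213 in MOLT-4 (log2 difference 9.68 ± 0.13, adjusted p = 5.1e-21). SIX6, a homeobox factor of the eye field, stood at 0.0957 and 0.0487 CPM against 128 and 130.2, a ratio of 1783-fold (95% interval 609.6 to 8647). ARID5B, a DNA-binding protein that takes part in the TAL1 circuit, was 1.68 and 1.56 CPM in DND-41 and 50.4 and 47.9 in MOLT-4 (4.92 ± 0.11). These 3 genes were nearly silent in both DND-41 libraries. MYB, which binds with TAL1, was 270.0 and 272 CPM in DND-41 and 737 and 708 in MOLT-4 (1.41 ± 0.05, adjusted p = 2.33e-14). RUNX1, another partner, was 339.6 and 345 against 747 and 692 CPM (1.07 ± 0.06, adjusted p = 3.37e-12). GATA3, the third partner and a T-lineage factor, was 197 and 209.6 against 279 and 251 CPM, a called difference of less than 2-fold (0.38 ± 0.06). Lower in MOLT-4 were TRIB2, a pseudokinase counted among TAL1 targets (114 and 117 CPM in DND-41 against 29.9 and 31.6, −1.90 ± 0.06), and NFKB1, a subunit of NF-kB (62.5 and 73.3 against 10.9 and 9.82, −2.71 ± 0.09). STIL, the neighbour of TAL1, was 88.3 and 83.5 CPM in DND-41 and 88.5 and 86.6 in MOLT-4, and was not called (log2 difference 0.03 ± 0.05, adjusted p = 0.674).

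Genes of the HOXA cluster were low in both lines and split along it. Of 19 listed cluster genes and cofactors, 12 were tested, with 3 at least 2-fold higher in MOLT-4 and 5 in DND-41 (66.7% against 25.8% over all genes) and a median of −0.18. HOXA9, the usual marker of the HOXA subtype, had no count in DND-41 and 0 and 0.15 CPM in MOLT-4, at or under the level of 3 counts. DND-41 held HOXA3, HOXA4, HOXA5, HOXA6 and HOXA7, the highest being HOXA7 at 10.6 and 11.3 CPM against 0.0529 and 0.0501 in MOLT-4, a ratio of 213-fold (95% interval 58.5 to 1761). MOLT-4 held among others HOXA10 (1.64 and 1.2 CPM against none) and the cofactor MEIS1 (3.33 and 3.66 against none, at least 24.1-fold). None of these passed 12 CPM. The PBX cofactors that were tested differed by less than 2-fold.

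Several genes of haematopoietic progenitors were expressed in MOLT-4 and at or near 0 in DND-41. Of 26 listed genes of immature cells and early T-cell precursors, 13 were tested, and 8 were higher in MOLT-4 and 3 in DND-41 at 2-fold (84.6% against 25.8% over all genes, median 3.56, or 3.33 with bounds). Members on in MOLT-4 alone, such as ERG, passed the filter through that line, so this share is no test of the list. ERG, an ETS factor of stem cells, was 0.0957 and 0.244 CPM in DND-41 and 109 and 108 in MOLT-4 (log2 difference 9.28 ± 0.15, adjusted p = 5.55e-20). CD34, the progenitor antigen, was 0.0479 and 0 against 26 and 18.9 CPM, a ratio of 926-fold (95% interval 166 to 36610.0). NFE2, a factor of the megakaryocyte and erythroid lineages, was without a count in DND-41 and at 32.8 and 26.2 CPM in MOLT-4 (at least 204-fold). PRDM16, a stem cell factor, was likewise without a count against 21 and 22.2 CPM (at least 149-fold). Both MOLT-4 libraries held each of these genes, and neither DND-41 library passed 0.3 CPM for any. WT1, mutated in some T-ALL, was 24.5 and 25.6 against 56.4 and 60.1 CPM (1.22 ± 0.07). FLT3 and SPINK2 were also higher in MOLT-4, at under 2 CPM. The genes higher in DND-41 were CEBPB (66.4 and 66.4 CPM against 10.8 and 9.12, −2.74 ± 0.09), ZEB2 (3.11 and 3.31 against 0.0529 and 0.401) and LYL1. MEF2C, the factor of the early precursor subtype, had at most 0.0501 CPM in any library and KIT at most 0.159, while HHEX was 3.73 and 3.7 CPM in DND-41 and 3.7 and 2.86 in MOLT-4 and not called (log2 difference −0.19 ± 0.19, adjusted p = 0.409). The progenitor genes of MOLT-4 thus came without KIT or MEF2C, and MPO, the myeloid peroxidase, was not above 0.05 CPM.

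NOTCH1 RNA was high in both lines, and single targets differed between them. NOTCH1, the receptor most often mutated in T-ALL, was 736 and 746 CPM in DND-41 and 995 and 1004 in MOLT-4, a called difference of less than 2-fold (log2 difference 0.43 ± 0.06, adjusted p = 2.03e-06). In the ACBI-1 libraries the same gene was called in the opposite direction (log2 difference −0.94). NOTCH3, itself a NOTCH1 target, was 476 and 502 CPM in DND-41 and 26.4 and 30.4 in MOLT-4 (log2 difference −4.10 ± 0.07, adjusted p = 8.36e-20). DTX1, a direct target that encodes a ubiquitin ligase, was 1368 and 1429 CPM in DND-41 and 37.8 and 38 in MOLT-4 (log2 difference −5.21 ± 0.07, adjusted p = 7.24e-21). DND-41 was high in both libraries for both genes and the lines did not overlap. PTCRA, the pre-T-cell receptor alpha chain and another direct target, went the other way, at 0.0479 and 0 CPM in DND-41 and 11.5 and 14 in MOLT-4, a ratio of 528-fold (95% interval 94.4 to 20910.0). HES1, the best known target, differed little, at 81.9 and 82 against 66.7 and 63.3 CPM (−0.33 ± 0.06, adjusted p = 3.67e-05). MYC, which NOTCH1 drives in T-ALL, was 729 and 738 CPM in DND-41 and 795 and 807 in MOLT-4 and was not called (log2 difference 0.13 ± 0.06, adjusted p = 0.0527). It was called, at under 2-fold, with DESeq2 (adjusted p = 0.0194) and without MOLT-4 library 1 (adjusted p = 0.0161).

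Of the 20 tested NOTCH genes, 18 were called (90%, against 67.4% of all genes). At 2-fold there were 1 in MOLT-4 and 5 in DND-41, which is 30% and near the 25.8% of all genes. The median of the 20 was −0.38. The other 3 higher in DND-41 were MAML2 (18.4 and 17.7 CPM against 0.793 and 0.801, −4.49 ± 0.17) and MAML3 (16 and 15.9 against 2.38 and 2.2, −2.80 ± 0.14), coactivators of NOTCH, and HES4. MAML1, the third coactivator, was 149 and 158 CPM in DND-41 and 174 and 175 in MOLT-4, and its small call (adjusted p = 0.00328) ended without DND-41 library 1. RBPJ, the DNA-binding partner of NOTCH, was 39.2 and 39 against 77.5 and 65.8 CPM (0.87 ± 0.07), and FBXW7, the ligase that degrades NOTCH1, was 32.4 and 33 against 40.8 and 42.2 CPM (0.34 ± 0.07).

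Transcripts of the T-cell receptor loci also separated the lines. TRDC, the constant segment of the delta chain, was 72.5 and 59.8 CPM in DND-41 and had no count in MOLT-4 (at least 428-fold higher, adjusted p = 5.83e-17). A single variable segment, TRDV1, was 63.3 and 53.4 CPM in DND-41 and absent from the counts of MOLT-4, and it held 100 and 99.9% of the TRDV counts of the DND-41 libraries. TRAC, the alpha constant segment, was 0.239 and 0.39 CPM in DND-41 and 16.6 and 14.6 in MOLT-4 (log2 difference 5.60 ± 0.22, adjusted p = 4.57e-14). The delta genes lie inside the alpha locus and are lost from a chromosome when alpha is rearranged, which is background and was not measured here. The summed TRAV segments stayed at 2.20 and 1.66 CPM in DND-41 and 0.793 and 0.902 in MOLT-4.

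The beta chain was transcribed in both lines and stronger in MOLT-4. TRBC2, a beta constant segment, was 1061 and 1027 CPM in DND-41 and 4888 and 4823 in MOLT-4 (log2 difference 2.22 ± 0.08, adjusted p = 4.7e-15). The near-identical TRBC1 had 0 in every library, under an identifier that the reference annotation used here does not place on a chromosome. All beta joining genes in the count tables were of the TRBJ2 group. The 0 therefore cannot be read as absence of TRBC1 RNA. Reads that could belong to either copy make the split between TRBC1 and TRBC2 uncertain. In MOLT-4 the variable segments summed to 1106 and 1243 CPM, of which TRBV20-1 alone held 97.2 and 97.4% (1075 and 1211 CPM, against 0.431 and 0.780 in DND-41). The 3 next segments of MOLT-4 past 5 CPM were TRBV10-1, TRBV10-2 and TRBV19, and the joining segment TRBJ2-1 was 78.5 and 84.3 CPM there against 3.40 and 2.92 in DND-41. In DND-41 the variable segments summed to 21.1 and 21.4 CPM, the highest being TRBV6-5 at 5.84 and 5.85. A large share of 1 variable segment was therefore seen for beta in MOLT-4, out of 73 variable genes, and for delta in DND-41. The delta share was out of only 3 variable genes, as segments named for both alpha and delta were counted as alpha. No dominant beta segment of that size was counted in DND-41.

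Gamma-chain transcripts were low in both. The variable gamma segments summed to 14.4 and 14.4 CPM in DND-41 and 1.38 and 1.75 in MOLT-4. In MOLT-4 the segment TRGV2 held 84.6 and 91.4% of them, out of only 26 and 35 counts. TRGC2, a gamma constant segment, was 16.1 and 16.2 against 6.4 and 5.21 CPM (−1.48 ± 0.12), and TRGC1 was 1.1 and 0.633 against 3.01 and 2.46 CPM (1.64 ± 0.29). The 2 constant segments share sequence, so their split is uncertain, and their sum stood at 17.2 and 16.8 CPM in DND-41 and 9.41 and 7.67 in MOLT-4.

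**Figure D3:**
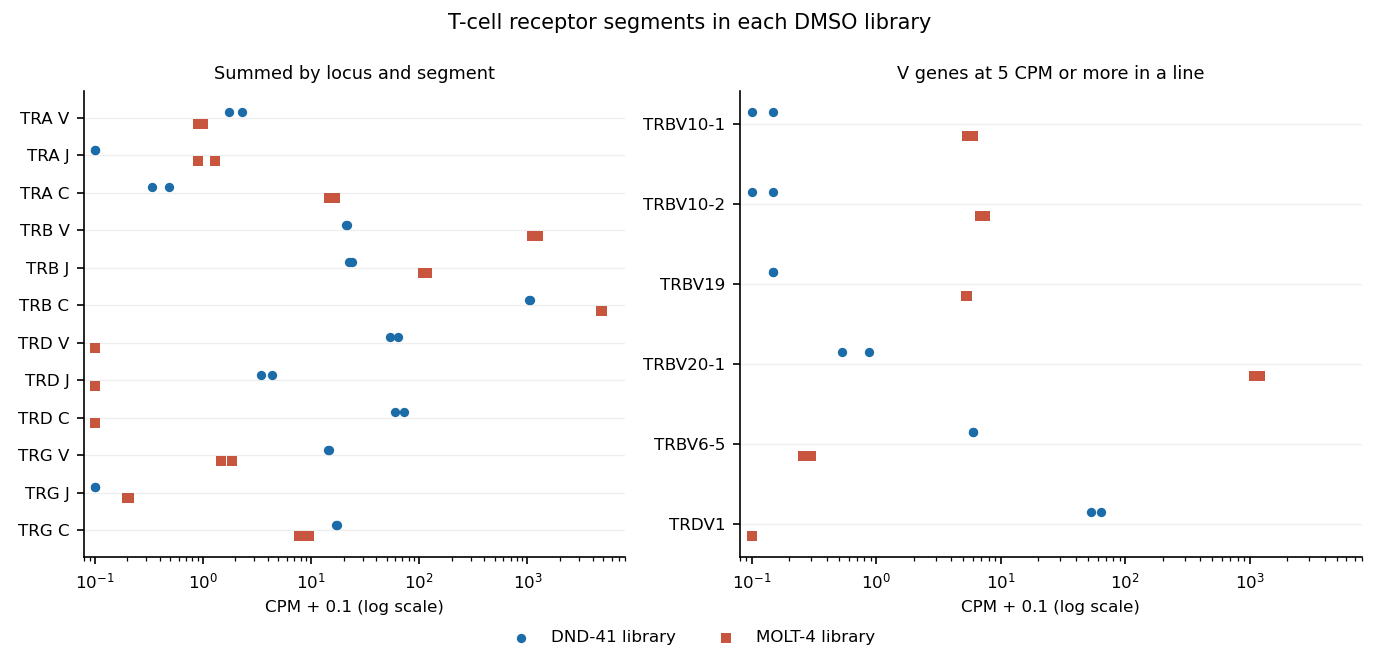
CPM plus 0.1 (x axis, log scale) of T-cell receptor segments in each untreated library, summed by locus and kind of segment (left) and for the variable genes at 5 CPM or more in a line (right), with DND-41 libraries as circles and MOLT-4 libraries as squares. The delta segments lie to the right in DND-41 and at the left edge in MOLT-4, and TRBV20-1 lies past 1000 CPM in MOLT-4 and below 1 CPM in DND-41.

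The CD3 chains that pair with the receptor were abundant in both lines. CD3E did not pass the test (log2 difference −0.06 ± 0.07, adjusted p = 0.458), although it was called as lower in MOLT-4 without MOLT-4 library 1 (−0.15, adjusted p = 0.00923). CD3D was 535 and 511 CPM in DND-41 and 324 and 347 in MOLT-4 (−0.64 ± 0.06), and CD3G was 305 and 313 against 189 and 152 (−0.86 ± 0.07), both called at under 2-fold. CD247, the zeta chain, was 127 and 124 against 171 and 181 CPM (0.48 ± 0.05). The RNA for the CD3 chains therefore differed far less between the lines than that for the receptor chains TRAC, TRDC and PTCRA did. Of the 10 tested genes of the complex, 4 were at least 2-fold higher in MOLT-4 and 2 in DND-41 (60% against 25.8% over all genes), and all 6 were receptor chains.

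The recombinase that joins receptor segments was higher in DND-41. RAG1 was 656 and 652 CPM in DND-41 and 63.3 and 86.9 in MOLT-4 (log2 difference −3.12 ± 0.09, adjusted p = 3.96e-16), and RAG2, its partner, was 77.7 and 74.8 against 12.2 and 15.3 CPM (−2.47 ± 0.09, adjusted p = 5.77e-15). DNTT, the polymerase that adds bases at the joints, was the reverse, at 21.4 and 19.7 CPM in DND-41 and 106 and 108 in MOLT-4 (2.38 ± 0.07, adjusted p = 1.63e-16). POLL, a polymerase of end joining, was 31 and 31.8 CPM in DND-41 and 0.159 and 0.401 in MOLT-4 (−6.76 ± 0.19). The ubiquitous end-joining genes differed by less than 2-fold: PRKDC was at 0.59 ± 0.05, LIG4 at 0.94 ± 0.09, XRCC4 at −0.94 ± 0.10 and XRCC5 at 0.26 ± 0.05 on the log2 scale. In all, 1 of 13 tested genes was 2-fold higher in MOLT-4 and 3 in DND-41, or 30.8% against 25.8% over all genes, with a median of 0.11.

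Genes of the cortical stage were expressed in both lines and split between them. Of 21 listed genes, 20 were tested and all 20 were called (100%, against 67.4% of all genes). Of these, 16 differed by 2-fold or more (80% against 25.8%), 6 higher in MOLT-4 and 10 higher in DND-41. The median of the 20 was −1.08. The CD1 molecules, which present lipids and mark cortical thymocytes, moved in both directions. CD1A, the defining marker, was 55.6 and 54.1 CPM in DND-41 and 66.5 and 70.9 in MOLT-4, less than 2-fold apart (log2 difference 0.33 ± 0.06, adjusted p = 0.00011). CD1B was 613 and 539.6 against 231 and 257 CPM (−1.24 ± 0.07), CD1E was 172 and 155 against 369 and 377 CPM (1.19 ± 0.06), and CD1C was 1.63 and 2.58 against 23.8 and 25.6 CPM (3.55 ± 0.15). The coreceptors were low in both lines and higher in MOLT-4. CD4 was 4.59 and 3.56 CPM in DND-41 and 9.46 and 9.47 in MOLT-4 (1.21 ± 0.15), CD8A was 1.29 and 1.51 against 13.4 and 14.4 (3.31 ± 0.16), and CD8B was 2.54 and 2.48 against 5.34 and 6.46 (1.23 ± 0.18). None of the 3 reached 15 CPM in any library, although the lines did not overlap.

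DND-41 was higher in other genes of this stage. SMPD3, a sphingomyelinase, was 1087 and 1085 CPM in DND-41 and 26.9 and 29 in MOLT-4 (log2 difference −5.28 ± 0.07, adjusted p = 5.51e-21). CD38, an ectoenzyme of cortical thymocytes, was 691 and 689 against 76 and 64.9 CPM (log2 difference −3.29 ± 0.07, adjusted p = 1.74e-18). MME, the peptidase known as CD10, was 95.2 and 90.5 against 0 and 0.15 CPM, a ratio of 1204-fold (95% interval 412 to 5839). DND-41 stood high in both libraries for all 3. ARPP21 (−1.54 ± 0.05), CD99 (−2.02 ± 0.06) and TSHR (−1.35 ± 0.08) were also lower in MOLT-4 on the log2 scale.

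**Figure D4:**
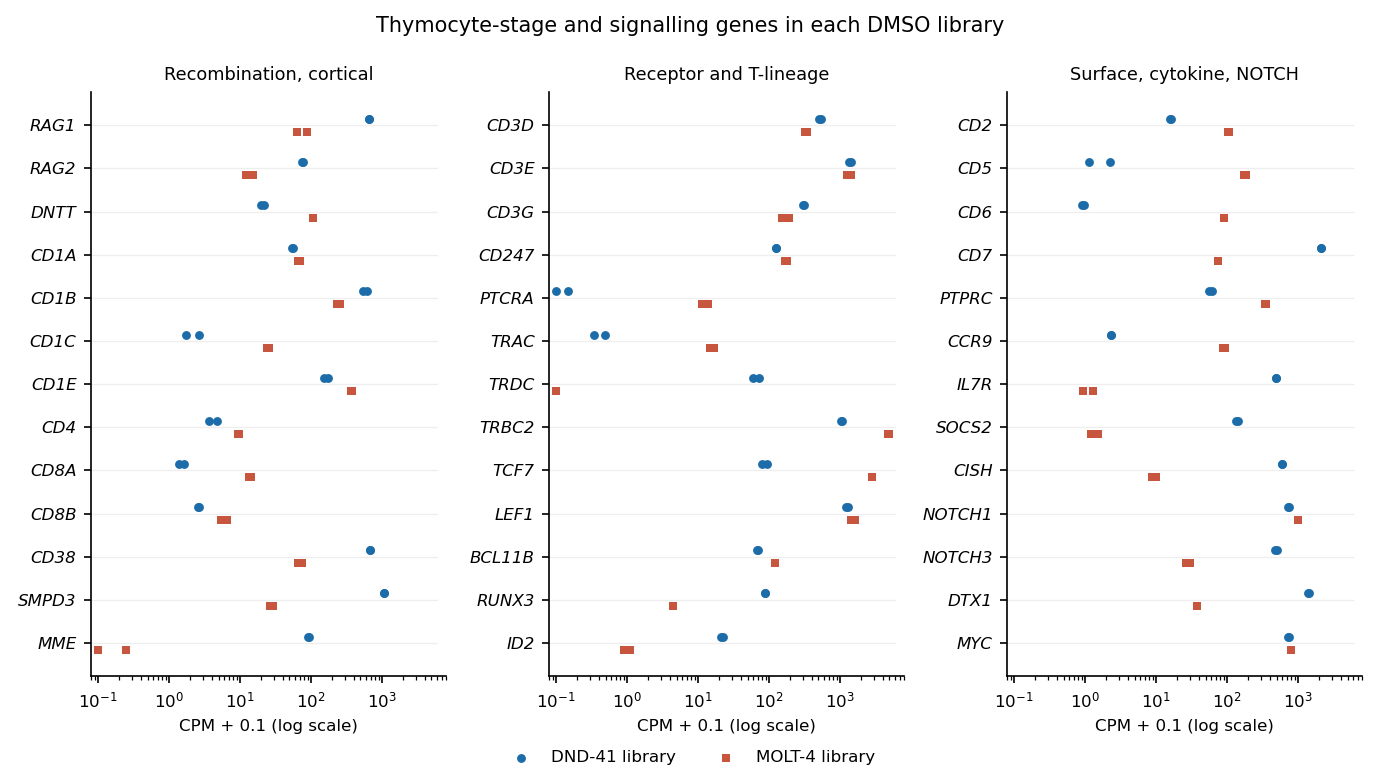
CPM plus 0.1 (x axis, log scale) of thymocyte-stage genes (rows) in each untreated library, with DND-41 libraries as circles and MOLT-4 libraries as squares. CD1A and CD3E lie nearly together in the lines, RAG1, CD38 and MME lie to the right in DND-41, and DNTT, PTCRA, CD5 and TCF7 lie to the right in MOLT-4.

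Factors that commit cells to the T lineage were mostly present in both lines, some at very different levels. TCF7, which acts downstream of NOTCH1 and WNT signalling, was 94.7 and 80.1 CPM in DND-41 and 2865 and 2848 in MOLT-4 (log2 difference 5.03 ± 0.09, adjusted p = 1.62e-19). Its relative LEF1 was high in both, at 1234 and 1293 against 1635 and 1439 CPM (0.28 ± 0.07, adjusted p = 0.00162), a call that ended when libraries were scaled by their size alone (0.18, adjusted p = 0.0652). BCL11B, the commitment factor, was 68.1 and 69.7 against 124 and 120.0 CPM (0.82 ± 0.05). RUNX3, which shapes CD8 cells, was higher in DND-41, at 89.1 and 88.2 CPM against 4.28 and 4.31 (−4.36 ± 0.09, adjusted p = 1.38e-18). The inhibitor of E proteins ID2 was also higher there (22.5 and 20.7 CPM against 1.0 and 0.801, −4.58 ± 0.17), while ID3 was not called (log2 difference −0.01 ± 0.08, adjusted p = 0.89). ZBTB16, the factor of innate-like T cells, was without a count in DND-41 and at 7.29 and 7.67 CPM in MOLT-4 (at least 51.6-fold), and TOX2 was 0.144 and 0.0975 against 16.6 and 12.6 CPM (6.84 ± 0.30). Of 28 tested factors, 8 were 2-fold higher in MOLT-4 and 4 in DND-41 (42.9% against 25.8%, median 0.38).

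Surface antigens that are used to stage T-ALL fell on opposite sides. CD7, the earliest T-lineage antigen, was 2089 and 2119 CPM in DND-41 and 74.2 and 75 in MOLT-4 (log2 difference −4.82 ± 0.07, adjusted p = 1.98e-20). CD5, a brake on receptor signals that rises with maturation, was 2.15 and 1.02 against 176 and 187 CPM (log2 difference 6.83 ± 0.12, adjusted p = 1.7e-19), and its relative CD6 was 0.814 and 0.877 against 91.8 and 89.5 CPM (6.73 ± 0.12). CD2, an adhesion receptor, was 16.3 and 15.7 against 108 and 103 CPM (2.72 ± 0.07). DND-41 was thus high for CD7 and low for CD5, CD6 and CD2, and MOLT-4 the opposite. Of the SLAM receptors, SLAMF6 (0.287 and 0.244 CPM against 48.4 and 40.7, 7.36 ± 0.18) and CD84 (3.25 ± 0.09) were higher in MOLT-4, and CD244 (−2.85 ± 0.17) and SLAMF1 (−4.79 ± 0.44) higher in DND-41. Of 22 tested antigens, 7 were 2-fold higher in MOLT-4 and 4 in DND-41 (50% against 25.8%), with a median of 0.26.

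Genes of mature thymocytes and their exit from the thymus split evenly, 10 against 10 at 2-fold of 30 tested (66.7% against 25.8%, median 0.22). KLF2, which drives exit, was 1.87 and 1.61 CPM in DND-41 and 10.4 and 9.67 in MOLT-4 (2.53 ± 0.17), and its target S1PR1, the exit receptor, was 1.77 and 2.0 against 22.8 and 25.5 CPM (3.68 ± 0.14). PTPRC, the phosphatase CD45, was 61 and 56.3 against 350.5 and 346 CPM (2.57 ± 0.06). PDCD1, the checkpoint receptor PD-1, was 0 and 0.0975 against 12.6 and 15.8 CPM. By contrast FOXO1, which turns on KLF2 and IL7R in T cells, was 8.42 and 9.99 CPM in DND-41 and 0.423 and 0.15 in MOLT-4 (−4.99 ± 0.28). ICOS, a costimulatory receptor, was 109 and 108 against 4.55 and 3.41 CPM (−4.77 ± 0.09). CCR7 (−1.88 ± 0.16) and CD44 (−1.42 ± 0.06) were also higher in DND-41. GIMAP genes are close copies of each other, so values for single members are uncertain.

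Components that carry the receptor signal were more often higher in MOLT-4. Of 29 tested proximal signalling genes, 12 were 2-fold higher in MOLT-4 and 2 in DND-41, 48.3% against 25.8%, with a median of 0.66. LCK, the kinase that starts the signal, was 202 and 209.8 CPM in DND-41 and 447 and 457 in MOLT-4 (1.13 ± 0.05), and ZAP70, the next kinase, was 335 and 349 against 619 and 654 (0.90 ± 0.06). LAT, the adaptor, was 3.45 and 3.75 against 19.7 and 21.6 CPM (2.52 ± 0.12). THEMIS, needed for thymocyte selection, was 10.1 and 11.2 against 99.8 and 105 CPM (log2 difference 3.27 ± 0.08, adjusted p = 1.01e-17), and RASGRP1, which links the receptor to RAS, was 12 and 12.9 against 61 and 56 CPM (2.23 ± 0.08). PTPN6, a phosphatase that dampens the signal, had the highest fitted difference among members counted in both lines, at 1.77 and 1.17 CPM against 46.7 and 46.1 (log2 difference 4.97 ± 0.12, adjusted p = 2.77e-17). The 2 genes higher in DND-41 were the inhibitory adaptor SIT1 (108 and 99.6 CPM against 8.83 and 8.27, −3.60 ± 0.08) and MALT1, a protease of the NF-kB branch (−1.27 ± 0.09).

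The interleukin 7 receptor and 3 feedback inhibitors of cytokine signalling were high in DND-41. IL7R, the alpha chain that gives early T cells their survival signal, was 496 and 494 CPM in DND-41 and 0.846 and 1.2 in MOLT-4 (log2 difference −8.90 ± 0.10, adjusted p = 1.68e-21). IL2RG, the shared gamma chain, was high in both, at 654 and 723 against 511 and 439 CPM (−0.54 ± 0.07). CISH, a feedback inhibitor that STAT5 induces, was 596 and 604 CPM in DND-41 and 9.99 and 8.57 in MOLT-4 (log2 difference −6.02 ± 0.08, adjusted p = 4.19e-21). SOCS2 was 141 and 134 against 1.43 and 1.1 CPM (−6.76 ± 0.10) and SOCS1 was 181 and 172 against 9.99 and 11.3 CPM (−4.05 ± 0.07). SOCS3, of the same family, was low and slightly higher in MOLT-4, at 1.96 and 1.95 against 2.48 and 3.16 CPM (log2 difference 0.53 ± 0.23, adjusted p = 0.0479), a call that ended under most of the alternatives run, DESeq2 (adjusted p = 0.375) among them. The transcription factors themselves were the reverse: STAT5A was 5.5 and 7.6 CPM in DND-41 and 678 and 667 in MOLT-4 (log2 difference 6.68 ± 0.09, adjusted p = 6.55e-21), STAT5B was 99 and 106 against 284 and 270.5 CPM (1.43 ± 0.05), and STAT3 was 56.5 and 57.6 against 244 and 235 CPM (2.07 ± 0.05). JAK3, the kinase on the gamma chain, was 19.2 and 18.4 against 65.2 and 60.4 CPM (1.74 ± 0.07), and IL9R was 0.0479 and 0.0975 against 5.66 and 5.46 CPM. Higher in DND-41 were also IL4R (−2.61 ± 0.09) and IL2RB (−2.41 ± 0.19). IL2RA had no count in any library. Of 29 tested genes, 8 were 2-fold higher in each line (55.2% against 25.8%), with a median of −0.14.

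Some B-lineage genes were strong in DND-41. CD79A, a signalling chain of the B-cell receptor that some immature T-ALL also express, was 1581 and 1600.0 CPM in DND-41 and 7.19 and 6.46 in MOLT-4 (log2 difference −7.86 ± 0.09, adjusted p = 1.68e-21). EBF1, a B-lineage factor, was 18.7 and 15.8 CPM in DND-41 and without a count in MOLT-4 (at least 112-fold), and CD72 was 11.3 and 9.16 against 0.423 and 0.451 CPM (−4.53 ± 0.24). IGLL1, a surrogate light chain gene, was 467 and 440.1 against 161 and 166 CPM (−1.47 ± 0.05), while its partner VPREB1 was higher in MOLT-4 (0.144 and 0.0487 against 5.82 and 6.66 CPM, 5.93 ± 0.36). The defining B-cell genes PAX5, MS4A1 and CD22 were at 0, as given above. Of 8 tested genes, 5 were 2-fold higher in DND-41 and 1 in MOLT-4 (75% against 25.8%).

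Homing receptors were divided as well, 7 higher in MOLT-4 and 6 in DND-41 at 2-fold of 23 tested (56.5% against 25.8%), with a median of 0.29. CCR9, the receptor for the thymic chemokine CCL25, was 2.25 and 2.19 CPM in DND-41 and 86.4 and 94.2 in MOLT-4 (log2 difference 5.34 ± 0.10, adjusted p = 8.07e-19). The integrin chains ITGAL (14 and 13.4 against 169.9 and 172 CPM, 3.64 ± 0.06) and ITGA4 (125 and 109 against 517 and 526 CPM, 2.15 ± 0.06) were higher in MOLT-4, and CXCR4, which holds T-ALL cells in the marrow, was 222 and 205 against 383 and 363 CPM (0.81 ± 0.05). S1PR4, a receptor for the same lipid as S1PR1, went against S1PR1, at 83.8 and 77.3 CPM in DND-41 and 0.529 and 0.451 in MOLT-4 (log2 difference −7.35 ± 0.14, adjusted p = 5.29e-19).

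Growth factor receptors differed by gene. FGFR1 was 23.5 and 24.2 CPM in DND-41 and 176 and 172 in MOLT-4 (log2 difference 2.87 ± 0.06, adjusted p = 1.49e-18), and FGFR3 was the reverse, at 13.3 and 13.1 against 1.0 and 1.55 CPM (−3.35 ± 0.18, adjusted p = 3.85e-12). FLT1, a VEGF receptor, was 0.191 and 0.0487 against 8.56 and 8.67 CPM (6.09 ± 0.32), whereas FLT4, another, was 9.67 and 8.82 against 0.106 and 0.0501 CPM, a ratio of 119.8-fold (95% interval 40.7 to 584). PDGFRB was 50.5 and 52.9 CPM in DND-41 and 0.582 and 1.85 in MOLT-4 (−5.38 ± 0.17). IGF1R, a NOTCH1 target that supports T-ALL growth, was 133 and 140.1 against 76.9 and 78.8 CPM (−0.81 ± 0.05). Of 28 listed receptors, 13 were tested, 3 of them 2-fold higher in MOLT-4 and 5 in DND-41 (61.5% against 25.8%). Receptors on in 1 line passed the filter through that line, which favours a high share.

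The tumour suppressor CDKN2A, lost in most T-ALL, was 523 and 513 CPM in DND-41 and 0.423 and 0.852 in MOLT-4 (log2 difference −9.64 ± 0.11, adjusted p = 2.17e-21). Its neighbour CDKN2B was 3.49 and 4.19 against 0.0529 and 0.10 CPM, a ratio of 49.8-fold (95% interval 16.7 to 244), while MTAP, the next gene, was 46 and 45.6 against 49 and 48.4 CPM and not called (log2 difference 0.09 ± 0.06, adjusted p = 0.235). The wide gap thus lay at the 2 inhibitor genes. NR3C1, the glucocorticoid receptor, was 90.1 and 94.2 against 31.2 and 31.9 CPM (−1.55 ± 0.06), and CDKN1A, an inhibitor of cyclin-dependent kinases, was 16.3 and 14.6 against 2.59 and 3.61 (−2.31 ± 0.15). Of 30 tested suppressors and neighbours, 3 were 2-fold higher in MOLT-4 and 5 in DND-41, 26.7%, close to the 25.8% of all genes.

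In the PI3K and RAS pathways 3 of 30 tested genes were 2-fold higher in MOLT-4 and 7 in DND-41 (33.3%, not far from the 25.8% of all genes, median −0.20). INPP4B, a lipid phosphatase, was 34 and 33.2 CPM in DND-41 and 0.0529 and 0.301 in MOLT-4 (−7.50 ± 0.21). The kinase subunit PIK3CD was 208 and 209.5 against 32.2 and 31.7 CPM (−2.71 ± 0.06) and the regulatory subunit PIK3R5 was 61.8 and 60.5 against 6.87 and 6.41 CPM (−3.20 ± 0.09). Feedback genes of ERK signalling divided. DUSP6, an ERK phosphatase, was 529 and 553 CPM in DND-41 and 14.1 and 11.9 in MOLT-4 (log2 difference −5.38 ± 0.07, adjusted p = 8.27e-21), while SPRY1 was 2.01 and 2.29 against 18.3 and 19.2 CPM (3.12 ± 0.14) and SPRED1 was without a count in DND-41 and at 14.7 and 13.6 CPM in MOLT-4 (at least 97.7-fold).

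Most apoptosis regulators that differed by 2-fold were higher in DND-41, on both sides of the balance. The survival gene BCL2 was 108 and 113 CPM in DND-41 and 22.3 and 21.1 in MOLT-4 (log2 difference −2.35 ± 0.06, adjusted p = 1.47e-16), and BCL2L1, which encodes BCL-XL, was 487 and 524 against 204 and 186 CPM (−1.37 ± 0.06). The death genes PMAIP1 (56.2 and 52.5 against 16.6 and 19 CPM, −1.61 ± 0.08) and BBC3 (8.28 and 5.55 against 0.634 and 0.651 CPM, −3.42 ± 0.27) were higher in DND-41 too. BIK alone was 2-fold higher in MOLT-4 (0.0479 and 0.341 against 4.55 and 5.51 CPM, 4.66 ± 0.38). The counts were 1 and 5 of 14 tested (42.9% against 25.8%), with a median of −0.34, and MCL1 differed by less than 2-fold (−0.29 ± 0.05).

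Of 25 listed cytotoxic genes, 12 were tested, 8 of them 2-fold higher in DND-41 and 1, GZMM (0.144 and 0.0487 CPM against 1.59 and 1.0), in MOLT-4 (75% against 25.8%, median −2.64). Here too, a gene on in 1 line passed the filter through that line, which favours a high share. Those higher in DND-41 were led by the cytokines TNF (33.5 and 34.4 CPM against 0.476 and 0.801, −5.71 ± 0.16) and LTB (134 and 130.3 against 8.46 and 8.72, −3.94 ± 0.07), and by PRF1, the pore-forming perforin (8.38 and 10.4 against 0.37 and 0.451, −4.49 ± 0.25). GZMB had no count in any library. NKG7, a granule protein, was 28.3 and 26.6 CPM in DND-41 and 2.59 and 2.75 in MOLT-4 (−3.36 ± 0.12), and the defining NK genes NCR1, KLRF1 and FCGR3A were at 0 in all 4.

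Antigen presentation by HLA class I differed little. Of 16 tested genes, 3 were 2-fold higher in MOLT-4 and none in DND-41 (18.8% against 25.8%): the peptidase ERAP2 (27.3 and 28.2 against 128 and 125 CPM, 2.18 ± 0.06), the activator NLRC5 (1.20 ± 0.09) and the chaperone CALR (1.04 ± 0.06). HLA-B and HLA-C lay within 2-fold, at 0.64 ± 0.05 and −0.25 ± 0.05 on the log2 scale, and as these genes are similar and vary between people, their split is uncertain. Class II was almost silent, with HLA-DRA at 0 in every library and 4 of 14 genes tested.

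Genes of replication and mitosis differed by less than 2-fold. Of 26 tested genes of DNA replication and mitosis, 19 were called (73.1%, against 67.4% of all genes) but 0 differed by 2-fold under the edgeR test or with DESeq2, and the median was 0.04. The widest gaps were E2F2, a factor of S-phase entry (−0.97 ± 0.05), and AURKB, a mitotic kinase (−0.80 ± 0.05), both lower in MOLT-4. MKI67, the proliferation antigen, was 1679 and 1738 CPM in DND-41 and 1678 and 1804 in MOLT-4 (log2 difference 0.03 ± 0.07, adjusted p = 0.734), and TOP2A was 694 and 681 against 696 and 721 CPM (log2 difference 0.04 ± 0.06, adjusted p = 0.505). CCND3, the main D-type cyclin of T-ALL, was 999.9 and 984 CPM in DND-41 and 724 and 750.1 in MOLT-4 (−0.43 ± 0.06), its kinase CDK6 was 608 and 576 against 1062 and 1029 (0.82 ± 0.06), and CCNE1 was 8.85 and 10.1 against 28.2 and 29.6 (1.61 ± 0.09). CCND2 was higher in MOLT-4 at under 2 CPM.

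The targets of ACBI-1 were present in both untreated lines. SMARCA4, a BAF ATPase, was 464 and 462 CPM in DND-41 and 701 and 737 in MOLT-4 (log2 difference 0.64 ± 0.06, adjusted p = 5.84e-09). SMARCA2, the alternative ATPase, was 64 and 69.8 against 24.6 and 26.5 CPM (log2 difference −1.39 ± 0.07, adjusted p = 3.16e-12). PBRM1, a subunit of the PBAF form, was 156 and 159 against 178 and 180.5 CPM (0.19 ± 0.05), and its call ended when libraries were scaled by size alone (0.08, adjusted p = 0.253). VHL, the receptor of the ligase that ACBI-1 recruits, was 74.3 and 72.8 against 56.4 and 55.3 CPM (−0.40 ± 0.06). Of 20 tested BAF and ligase genes, 1 was 2-fold higher in each line (10% against 25.8%), SMARCD3 in MOLT-4 (1.35 ± 0.13) and SMARCA2 in DND-41. All mitochondrially encoded genes together, ribosomal and transfer RNA genes included, took 12.1 and 13.2% of the counts in DND-41 and 19.0 and 14.4% in MOLT-4. None of the 13 protein-coding genes among them, which form the list, differed by 2-fold. Of the 13, 11 were called by edgeR (84.6%, against 67.4% of all genes) but 3 by DESeq2. The MOLT-4 libraries differed from each other as much as the lines did.

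**Figure D5:**
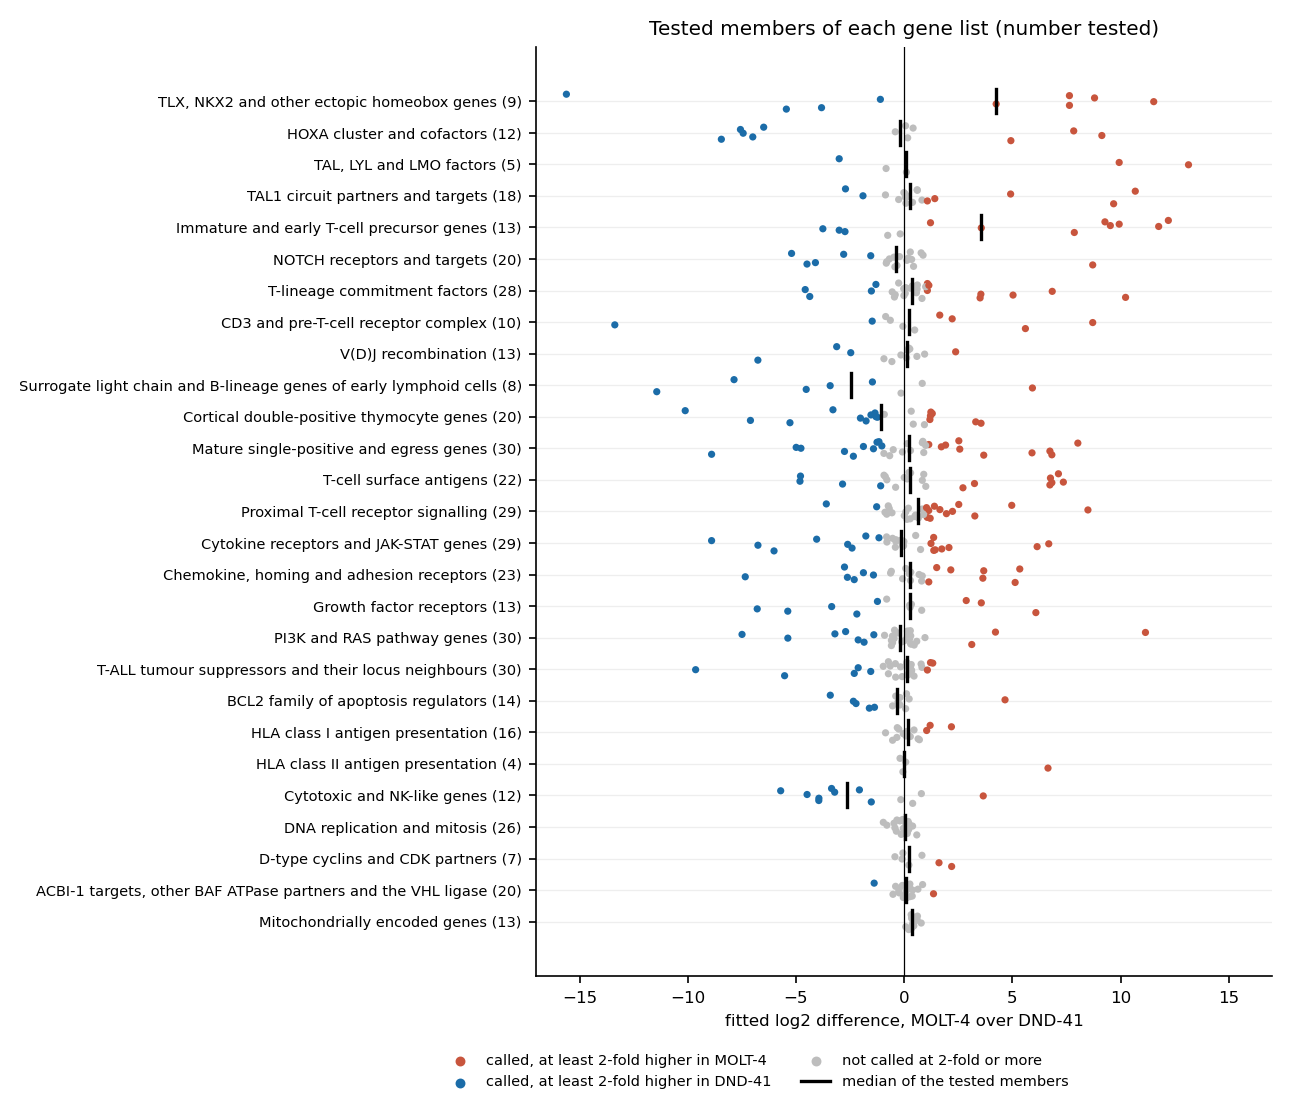
Fitted log2 difference, MOLT-4 over DND-41 (x axis), of each tested member of the 27 gene lists (rows, with the number tested), coloured where called at 2-fold or more, with a bar at each list's median. All 9 homeobox genes are coloured and none of the 26 replication and mitosis genes is, and points of genes at 0 in a line are fitted values and not bounds.

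Over all genes, those with the largest differences at 10 CPM or more were taken, with 15 in each direction. In MOLT-4 they were led by ITM2A, a membrane protein that GATA3 is known to induce in thymocytes, at 396 and 352 CPM against 0.239 and 0.634, and FAT1, a large protocadherin, at 517 and 553 CPM against 1.10 and 1.85. NKAIN4, a membrane protein that binds the sodium pump, was 248 and 231 CPM against 0.0479 and 0. PMEPA1, a feedback inhibitor of TGF-beta signalling, was 172 and 187 CPM against 0.431 and 0.244, and PYCR1, which makes proline, was 115 and 111 CPM against 0.0479 and 0.244. The others were C1orf228, DAB2IP, NETO2, NT5DC2, CECR5, PLEKHG4 and MLC1, beside ALDH1A2, SIX6 and ERG, which are described above. In DND-41 they included H19, an imprinted noncoding RNA, at 180 and 179 CPM against 0.0529 and 0.15, GNAO1, a G-protein alpha subunit, at 156 and 161 CPM against 0.37 and 0.601, and GBP5, an interferon-inducible GTPase, at 125 and 121 CPM against 0.317 and 0.351. Others were ISOC2, AGPAT3, FBXL7 and MDFIC, beside CDKN2A, TLX3, IL7R, CD79A, MME, SOCS2 and CISH. For all 30 genes both libraries of the higher line stood far above both libraries of the other.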

How the data were processed

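RNA was measured in 8 stranded libraries of total RNA, read in pairs, 2 per line and treatment, of which the 4 DMSO libraries are compared here. The deposited values are whole-number counts of reads per gene, not normalized, and every column was mapped to a library from its label. STAR 2.5.2a, featureCounts, the hg19 build and DESeq2 1.12.4 are named in the submitters' processing notes. The annotation used and the strand setting of the counting were not given in the sources used here, so reads of a gene and of an overlapping antisense gene cannot be told apart. The authors' deposited DESeq2 tables were used for gene names only.

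The 2 count tables were joined by gene identifier. Genes were kept with filterByExpr in edgeR 4.0.16 (R 4.3.3) at a minimum count of 10, normalized with TMM and compared by the quasi-likelihood F test, MOLT-4 against DND-41, with no covariate. Adjusted p-values follow Benjamini and Hochberg at a threshold of 0.05. CPM are counts over effective library size, each standard error is the absolute log2 difference divided by the square root of F, and lengths for RPKM came from GENCODE 29 by identifier. For a gene at 0 in a line the fold is a lower bound set by 3 counts per library, and with 1 to 3 counts it is a ratio with a 95% interval, both for counting error only. Totals of 19980929 to 20185684 counts set this floor. The ACBI-1 libraries were tested in the same way.

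The comparison, the 27 gene lists, some of which share genes, and the 6 marker lists were chosen with earlier results of these data known. Any list member may be named, with a fixed set of subtype and stage genes always given. From all genes the rule takes the 15 largest differences of mean log2(CPM + 1) in each direction at 10 CPM or more, and every T-cell receptor variable gene at 5 CPM or more. Clone, LINC, antisense and pseudogene names and genes of the sex-specific kind were left out. A few genes under this rule are not reported here. Genes of the fibronectin and collagen group lie outside the rule. Replicate numbers were checked for pairing: deviations of same-numbered libraries correlated at −0.051 over 12406 genes, so no pairing was used. The scripts were tested on simulated data with known changes before the tests. Alternatives were other scalings, other filters, DESeq2 1.42.0, a test against a 2-fold difference, a replicate block, a threshold of 0.01, a fit to all 8 libraries, leaving out mitochondrially encoded genes and leaving out each library. Tables and figures were made with Python 3.11.15, pandas 2.3.3, numpy 2.4.6, scipy 1.17.1 and matplotlib 3.10.9.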

Additional observations from a re-analysis of the deposited data

Results flagged for a closer look

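A set of 480 tested genes was examined: members of the gene and marker lists, receptor variable segments and the 15 largest differences in each direction. Those last were picked for the size of their difference with DMSO. In this set, 12 genes were called in one direction with DMSO and in the other with ACBI-1. The share over all genes was not counted for calls of any size. Of the 3429 genes at least 2-fold apart with DMSO and tested with ACBI-1, 9 were called in the opposite direction. Genes whose libraries overlapped between the lines with DMSO or with ACBI-1 were left out of the 12 but not of the 9. The 2 counts also differ in the size of difference asked for, so they cannot be compared. The change in the line difference between the DMSO and the ACBI-1 libraries was not tested. Values are log2 differences, MOLT-4 over DND-41, first with DMSO and then with ACBI-1.

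NOTCH1 was 0.43 and −0.94, going from 995 and 1004 CPM in untreated MOLT-4 to 166 and 159 with ACBI-1, and from 736 and 746 to 283 and 339 in DND-41. CCND3, a cyclin that NOTCH signalling supports, was −0.43 and 0.21. Of the receptor complex and its signalling, CD247 was 0.48 and −0.42, LCP2, an adaptor, was 0.48 and −0.80, and CD28, a costimulatory receptor, was 0.84 and −0.36. INPP5D, a lipid phosphatase, was −0.59 and 0.39. EPHB6, an ephrin receptor without kinase activity, was 0.33 and −0.58, and the integrin chain ITGAE was 0.30 and −1.52. SOCS3 was 0.53 and −1.06, and RBX1, a subunit of the VHL ligase, was −0.23 and 0.25. The gamma segment TRGC1 was 1.64 and −1.43 and TRGV2 was 0.93 and −3.79, both under 4 CPM in every library.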

How the results depend on the processing

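A change of direction was counted only where an alternative both tested and called the gene. Counted so, 1 of the 3842 differences of 2-fold or more, FN1, went the other way, without MOLT-4 library 2 (log2 difference −1.71). Of these genes, 3350 were called in the same direction with DESeq2, 2958 in a test against a 2-fold difference, and from 3586 to 3842 under the others except the stricter filter. That filter, at a minimum count of 50, tested 11820 genes and left 1296 genes 2-fold higher in MOLT-4 and 1201 in DND-41, fewer because fewer genes were tested. All 2497 of the earlier calls that it tested were called again. With 1 library left out, the lone library being assumed to vary like the other line's pair although the MOLT-4 pair varied more (chi-square per degree of freedom 15.04, against 3.64 in DND-41), 9104 to 9809 genes were called, with 1995 to 2237 at 2-fold in MOLT-4 and 1724 to 1892 in DND-41. With a replicate block, 9802 genes were called, 2023 and 1804 at 2-fold, and no list changed its 2-fold counts. Scaling by library size alone moved the median of all genes by −0.10 and the share of calls higher in MOLT-4 from 51.5% to 42.5%, so small differences are relative to the scaling.

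MT-ND3 and MT-ND4L changed sign without MOLT-4 library 1, to −0.034 (adjusted p = 0.6) and −0.146 (adjusted p = 0.0128), against 0.61 and 0.264 without MOLT-4 library 2, and the cause was not tested. Of the set of 480 genes described above, 40 lost their call with DESeq2 and 43 with library size alone, with no reversal. With MOLT-4 library 2 left out, 9 of the 27 lists changed a 2-fold count, by at most 1 gene in a direction, against 8 to 13 lists and at most 2 genes for the other libraries. The stricter filter and the test against a 2-fold difference each changed 13 lists, by at most 3 genes. At this depth genes under about 0.15 CPM cannot be compared.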

Other observations

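Over 8778 protein-coding genes that reached 5 CPM in each line, the log2 difference was not centred alike on all chromosomes. The median was −0.55 for the 120 genes of chromosome 18, of which 8.3% were higher in MOLT-4, and 0.47 for the 91 genes of chromosome 21, of which 84.6% were. Medians of chromosomes 4, 7, 8, 9, 17 and 20 lay from 0.16 to 0.31, and those of the others from −0.09 to −0.01. Among the listed genes on chromosome 18, BCL2, MALT1, PMAIP1, PTPN2 and TYMS were lower in MOLT-4 by the edgeR test and PHLPP1 was not called. Of the 8 on chromosome 21, ERG, RUNX1 and 4 others were higher in MOLT-4, and 2 were lower. Copy number was not measured.

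Among the genes with a 2-fold difference between the untreated lines, 9 were called in the opposite direction between the ACBI-1 libraries. Of these, ARRDC4, CAMK1D, CDH23, DCHS1, FSCN1, GP5 and SHB are outside the gene lists and were named after their values were seen.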
